A study of Mus musculus with 6 samples.

Results

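The data on 10 genes of prostaglandin metabolism were drawn from RNA-seq of primary mouse pancreatic stellate cells (PSCs), the fibroblast precursors of the pancreas, cocultured with pancreatic tumor organoids at 2 oxygen levels. The genes were taken by name as those of prostaglandin synthesis, breakdown and PGE2 reception: the cyclooxygenases Ptgs1 and Ptgs2, the terminal synthases Ptges, Ptgis and Ptgds, the degrading enzyme Hpgd, and the prostaglandin E2 (PGE2) receptors Ptger1, Ptger2, Ptger3 and Ptger4. All 10 were found by their Ensembl identifiers among the 55426 features of the deposited table. The PSCs came from C57BL/6 mice and sat in Matrigel in a transwell insert above organoids of mT3, a cell line from a primary mouse pancreatic ductal adenocarcinoma. Normoxic cocultures were kept at 21% O2 and hypoxic cocultures at 1% O2, both for 48 h, with 3 samples each. All 6 samples were cocultures with tumor organoids, so the values hold for PSCs exposed to tumor-derived factors. The PSCs were early-passage primary lines, and the sources used here do not say whether the 3 samples of a condition are separate lines, so p-values measure the spread between these samples.

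Prostanoids are lipid signals made from arachidonic acid, which phospholipases release from membranes. The cyclooxygenases, constitutive COX-1 (Ptgs1) and inducible COX-2 (Ptgs2), turn it into prostaglandin H2, and terminal synthases turn that into PGE2, prostacyclin (PGI2), PGD2, PGF2α or thromboxane. The products leave the cell, act on G protein-coupled receptors of the same or neighbouring cells, and are inactivated by 15-hydroxyprostaglandin dehydrogenase (Hpgd). In fibroblasts COX-2 and PGE2 synthesis are known as part of the response to interleukin-1 and other inflammatory signals, and COX-2 is also known as a gene that responds to hypoxia.

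RNA was sequenced from poly(A) libraries, and the authors deposited expected counts, which are estimated numbers of reads per gene. Totals ran from 24749601 to 25914892 counts in normoxic and from 25847719 to 31925054 in hypoxic samples. CPM below are counts per 1000000 counts of a library total scaled by TMM. The conditions were set against each other by the quasi-likelihood F test of edgeR across 16207 genes, and a gene was called higher or lower at a fold change beyond 1.5 and a Benjamini-Hochberg adjusted p under 0.05. Of the 10 genes, 9 had enough counts to be tested, and 5 were called, 4 higher and 1 lower at 1% O2. In percent that is 55.6 of those tested, against 34.2% of all genes tested (18.9% higher and 15.3% lower). The same 5 had an adjusted p under 0.05 at any fold, against 62.7% of all genes. They were also those without overlap between conditions, which held for 68.9% of all genes. The median log2 fold change of the 9 was 0.21, and that of all genes tested was 0.0. The fibroblast character of the samples was looked at through 10 general fibroblast markers such as Col1a1, Dcn and Lum, all of which were measured in every sample. Their sum was 18600 to 23500 CPM in normoxic and 18900 to 21400 in hypoxic samples, and most of it was Col1a1 and Col1a2. Of the 10, 2 were called higher, Pdgfra (log2 fold change 0.82) and Pdpn (0.99), and 2 lower, Lum (-2.17) and Thy1 (-1.0). Of 7 epithelial markers, 6 stayed under 10 counts in every sample. The seventh, Krt19, rose from 1.04, 0.455 and 0.649 CPM to 20.6, 21.7 and 23.9. Of the mesothelial, endothelial and acinar markers, 2 of 6, 4 of 5 and 1 of 5 could be tested, and their calls were 1 higher, 1 higher and 1 lower, and none. Macrophage markers were present in every sample and are taken up where they touch a result.

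The sequences before the transcription starts of Ptgs2, Ptgs1 and Ptges are shown because these neighbours in the pathway moved differently. They come from RefSeq on build GRCm38.p6, whose windows of 300 bases (250 before to 50 after the start) were found for 8 of the 10 genes. Each line holds the 180 bases just before the start that RefSeq annotates, 5′ to 3′ on the gene's strand. For Ptges that start lies inside the longer span that GENCODE M21 gives the gene, whereas for Ptgs1 and Ptgs2 both annotations start at the same base. Capitals mark the letters ACGTG or GCGTG (the core bound by hypoxia-inducible factors), CACGTG (an E-box, which contains ACGTG) and TGACG (part of a cAMP response element, CRE), searched on both strands.
Ptgs2 (chr1:150099851-150100030, plus strand): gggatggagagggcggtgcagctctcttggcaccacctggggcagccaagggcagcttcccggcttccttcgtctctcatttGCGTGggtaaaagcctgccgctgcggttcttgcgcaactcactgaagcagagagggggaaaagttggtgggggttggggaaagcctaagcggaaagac
Ptgs1 (chr2:36230246-36230425, plus strand): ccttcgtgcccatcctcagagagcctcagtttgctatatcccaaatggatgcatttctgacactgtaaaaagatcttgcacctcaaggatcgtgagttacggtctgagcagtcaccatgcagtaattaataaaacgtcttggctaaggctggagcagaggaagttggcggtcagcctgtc
Ptges (chr2:30903298-30903477, minus strand): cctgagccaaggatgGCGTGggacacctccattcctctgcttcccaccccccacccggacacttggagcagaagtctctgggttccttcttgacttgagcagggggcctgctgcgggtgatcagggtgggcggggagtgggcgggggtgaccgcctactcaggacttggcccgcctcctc

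Just after its annotated start, Ptgs2 holds a short site in which an E-box and TGACG on the opposite strand overlap (chr1:150100035-150100064, plus strand, 30 bases), shown because it was the only CACGTG and the only TGACG in the 8 windows.
Ptgs2 site: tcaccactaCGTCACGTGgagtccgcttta
The windows of Ptgs2, Ptges, Ptger3 and Hpgd held ACGTG or GCGTG, as did 43.8% of the 32851 promoter windows of the genome. CACGTG was in 7.15% and TGACG in 20.8% of all windows. The full CRE, searched by name, was in 1.79% of windows and in none of the 8, and the NF-kB consensus, searched by name, was in 8.46% of windows and in that of Ptgds alone. TATAAA was in 13.6% of windows and, of the 8, in that of Hpgd alone. These are matches of letters, sequence outside the windows was not searched, and no binding was measured.

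The cyclooxygenases parted. Ptgs2 (ENSMUSG00000032487; chromosome 1 of GRCm38, 150100031 to 150108227, plus strand), the inducible enzyme, was at 13.3, 10.2 and 13.7 CPM at 21% O2 and at 194, 220 and 242 CPM at 1% O2. These rested on 345, 270 and 337 counts against 4946, 6892 and 7698. Every hypoxic sample was far above every normoxic one, with no overlap. The mean was 12.4 ± 1.87 CPM at 21% and 219 ± 23.9 CPM at 1% O2 (SD, n = 3 each), a rise of 17.7-fold, or 4.14 as log2 fold change (standard error, SE, 0.12; edgeR adjusted p = 4.29e-08). By log2 fold change it ranked 93 of the 16207 genes, counted from the highest.

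Ptgs1 (ENSMUSG00000047250; chromosome 2, 36230426 to 36252272, plus strand), the enzyme that most tissues keep at a steady level, was at 172, 139 and 155 CPM in normoxic samples and 187, 128 and 176 in hypoxic samples. Hypoxic replicate 2 was the lowest of all 6 samples and hypoxic replicate 1 the highest, so the conditions overlapped fully. Its log2 fold change was 0.07, with a 95% confidence interval from -0.23 to 0.38 (adjusted p = 0.656 from edgeR), which leaves out changes of the size seen for Ptgs2. Its direction was not settled, as it was -0.01 without normoxic replicate 2 and -0.03 without hypoxic replicate 1.

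Levels of different genes were compared as CPM per kb of exon, with all annotated exons of a gene merged. On this scale the ratio of Ptgs2 to Ptgs1 was 0.0653, 0.0624 and 0.0749 in normoxic samples and 0.879, 1.46 and 1.17 in hypoxic samples. Ptgs2 thus went from a small part of cyclooxygenase transcript, 5.88% to 6.97% of the sum of both, to between 46.8% and 59.4%. The summed level of both genes was 47.3, 38.1 and 42.9 CPM per kb in normoxia and 90.7, 80.9 and 98.1 in hypoxia. The ratio differed by 4.09 on the log2 scale (standard error 0.23, exact permutation test, two-sided p = 0.1, the smallest that 3 samples against 3 allow). Which of the genes led at 1% O2 depended on the length used: the mean log2 ratio was 0.19 with merged exons and -0.20 with the longest annotated transcript, a choice made after seeing the data.

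**Figure D1:**
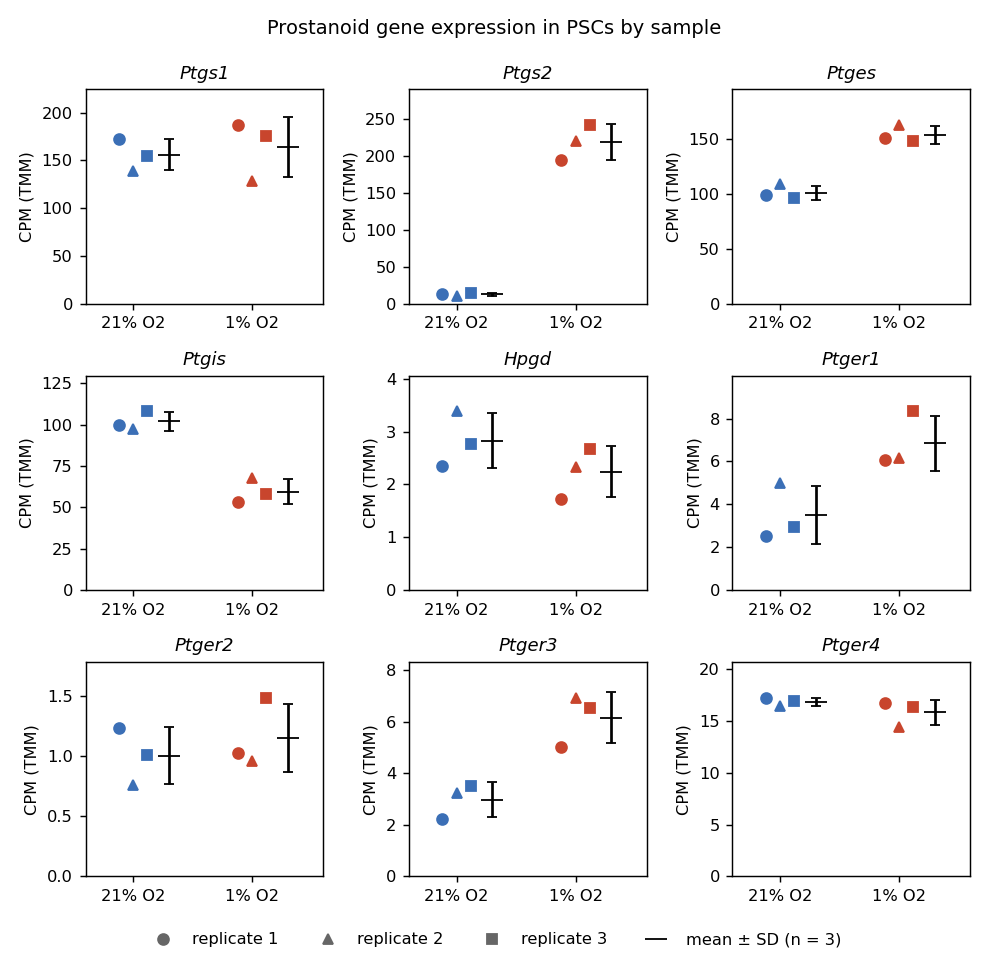
TMM-scaled CPM of the 9 tested genes in each sample (points, shape by replicate number) at 21% O2 (blue) and 1% O2 (red), with mean ± SD (n = 3) in black. Ptgs2 went from 12.4 to 219 CPM while the points of Ptgs1, Hpgd, Ptger2 and Ptger4 overlapped between conditions.

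Among the terminal synthases, the enzyme for PGE2 and the enzyme for prostacyclin moved in opposite directions. Ptges (ENSMUSG00000050737; chromosome 2, 30889471 to 30929863, minus strand), microsomal PGE synthase-1, which works together with COX-2, was at 98.7, 109 and 96.1 CPM in normoxia and at 151, 163 and 148 in hypoxia. The lowest hypoxic sample was above the highest normoxic one. The mean rose from 101 ± 6.66 to 154 ± 7.88 CPM (SD, n = 3 each), or 0.60 as log2 fold change (SE 0.07, edgeR adjusted p = 4.89e-05). This change lay at the fold threshold, since the fold change was 1.52. It fell short of 1.5-fold, with the direction kept, without normoxic replicate 1 (log2 fold change 0.58), normoxic replicate 3 (0.56) or hypoxic replicate 2 (0.56), and with upper-quartile scaling or no filter on low counts (0.58 each). Over these settings the adjusted p from edgeR stayed between 3.07e-07 and 0.000486.

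Ptgis (ENSMUSG00000017969; chromosome 2, 167191805 to 167240604, minus strand), prostacyclin synthase, was at 99.6, 97.4 and 108 CPM in normoxia and at 53.1, 67.7 and 57.8 in hypoxia. All hypoxic samples were below all normoxic samples. The mean fell from 102 ± 5.67 to 59.5 ± 7.45 CPM (SD, n = 3 each), or -0.77 as log2 fold change (SE 0.09, edgeR adjusted p = 6.89e-05), or 1.71-fold lower. Exons of Ptgis overlap those of 1110018N20Rik on the other strand. That gene went from 3, 9 and 5 counts to 97, 163 and 147 (log2 fold change 4.34, adjusted p = 4.31e-06 from edgeR), and the strand setting of the counting is not given in the sources used here, so reads in the shared stretch cannot be told apart.

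Per kb, Ptges was below Ptgis in every normoxic sample, with ratios of 0.647, 0.729 and 0.58, and above it in every hypoxic sample, with ratios of 1.85, 1.57 and 1.67. The ratio rose 2.61-fold, by 1.38 on the log2 scale (standard error 0.12, exact permutation p = 0.1, two-sided, the smallest possible here). With the length of the longest transcript the mean log2 ratio went from -0.80 to 0.58, against -0.62 to 0.76 with merged exons, so the order turned on either scale. Ptgds (ENSMUSG00000015090; chromosome 2, 25466709 to 25470046, minus strand), the lipocalin-type PGD synthase, was at the limit of detection, as it had 0, 1 and 0 counts in normoxia and 0, 0 and 1 in hypoxia, and was not tested. At these totals a count of 0 allows a level of up to 3 counts, or 0.094 to 0.121 CPM, for counting error only.

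**Figure D2:**
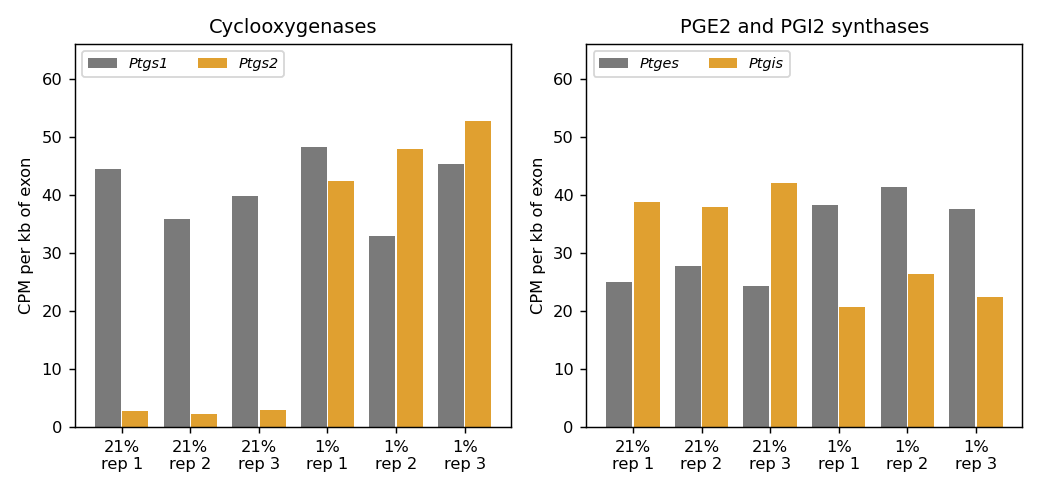
Transcript level as CPM per kb of merged exons in each sample, for the cyclooxygenases (left) and for the synthases of PGE2 and PGI2 (right), 1 pair of bars per sample with no error bars. Ptgs2 is a small fraction of Ptgs1 in the 3 samples at 21% O2 and near it at 1% O2, and Ptges passes Ptgis in each of the 3 samples at 1% O2.

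The other synthases of the pathway were 7 genes, of which 1 was called higher and 2 lower, or 42.9%, beside 34.2% of all genes. The other PGE synthases were not called. Ptges2, a membrane-associated PGE synthase, was at 26.4, 32.6 and 24.6 CPM in normoxia and 24.9, 27.4 and 25.8 in hypoxia (log2 fold change -0.10, 95% confidence interval from -0.33 to 0.14). Ptges3, a cytosolic PGE synthase that is also the HSP90 co-chaperone p23, went from 97.6 ± 3.90 to 85.7 ± 2.28 CPM (SD, n = 3 each), or -0.19 as log2 fold change (adjusted p = 0.0125 from edgeR), under the fold threshold.

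For PGF2α, Akr1c18, an aldo-keto reductase counted among the PGF synthases and known for inactivating progesterone, rose from 5.7, 4.06 and 3.49 CPM to 19.2, 13.6 and 18.1, with no overlap (log2 fold change 1.94, SE 0.19, edgeR adjusted p = 2.82e-05). Prxl2b, the prostamide/PGF synthase, fell from 24.0, 35.7 and 23.0 CPM to 9.54, 10.8 and 9.99 (log2 fold change -1.45, SE 0.16, edgeR adjusted p = 6.24e-05). Akr1b3, the aldose reductase that also makes PGF2α, was at 85.9 ± 4.36 and 65.4 ± 14.4 CPM (SD, n = 3 each), or -0.40 as log2 fold change, which was under the fold threshold (adjusted p = 0.0287 from edgeR). Genes of PGF2α synthesis thus did not share a direction.

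Hpgds, the hematopoietic PGD synthase, fell from 6.2, 11.5 and 8.68 CPM to 1.96, 4.91 and 2.77 (log2 fold change -1.43, SE 0.32, edgeR adjusted p = 0.0037). Tbxas1, thromboxane synthase, was at 3.46, 5.31 and 4.38 CPM in normoxia and 2.51, 3.57 and 2.70 in hypoxia, overlapping between conditions (log2 fold change -0.58, adjusted p = 0.0366 from edgeR). It was just under the fold threshold, and was called lower without normoxic replicate 1 (-0.73) or hypoxic replicate 2 (-0.75) and with upper-quartile scaling, library totals or no filter (-0.60 each). Both enzymes are known from blood-derived cells. The summed level of 12 macrophage markers was 900 to 1570 CPM in normoxic and 473 to 844 in hypoxic samples, and 6 of the 11 tested were called lower and 0 higher, beside 15.3% of all genes called lower. Most of that sum was Lyz2; without it the range was 247 to 410 and 158 to 298 CPM. Within each condition the order of the 3 samples was the same for the marker sum, Hpgds and Tbxas1, with replicate 2 highest and replicate 1 lowest. The fibroblast markers Dcn and Lum had that order too, and replicate 2 was also highest in both conditions for Ptges and Ptges2. The order was thus not particular to genes linked to macrophages. Of 6 markers of mast cells, another known source of Hpgds, 5 were under 10 counts in every sample. The remaining one, Kit, was called higher at 1% O2. In bulk RNA, fewer cells of a type and less RNA per cell cannot be told apart. The part of macrophages or mast cells in these values was not tested.

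**Figure D3:**
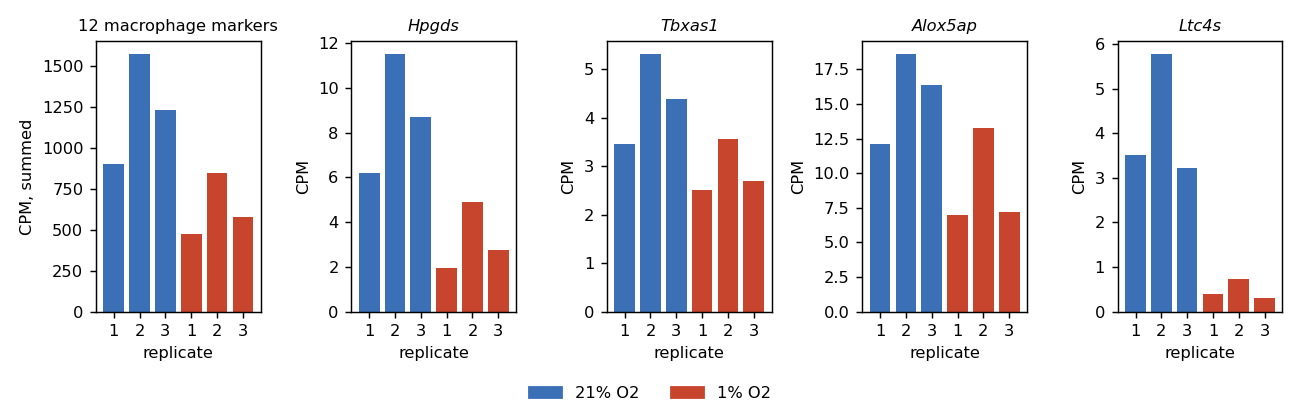
CPM in each sample at 21% O2 (blue) and 1% O2 (red), for the sum of 12 macrophage markers and for Hpgds, Tbxas1, Alox5ap and Ltc4s, with 1 bar per sample and no error bars. Replicate 2 is the highest sample of its condition in all 5 panels, as it also is for Ptges and Dcn, which are not shown. The marker sum is 900 to 1570 CPM at 21% O2 and 473 to 844 at 1% O2.

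Of the 6 other breakdown and transport genes, 0 were called higher and 2 lower, or 33.3%, beside 34.2% of all genes (18.9% higher and 15.3% lower). Hpgd (ENSMUSG00000031613; chromosome 8, 56294585 to 56321043, plus strand), which inactivates prostaglandins inside the cell, was low, at 2.35, 3.38 and 2.76 CPM in normoxia and 1.73, 2.33 and 2.67 in hypoxia. The conditions overlapped. Its log2 fold change was -0.33 with a 95% confidence interval from -0.83 to 0.18 (adjusted p = 0.226 from edgeR), so neither no change nor a fall past the fold threshold was left out.

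Downstream of Hpgd act the prostaglandin reductases. Of these, Ptgr2 fell from 62.5 ± 7.10 to 36.8 ± 1.04 CPM (SD, n = 3 each), or -0.76 as log2 fold change (SE 0.08, edgeR adjusted p = 4.64e-05). Ptgr1 (log2 fold change 0.06, 95% confidence interval from -0.10 to 0.22) and Zadh2 (-0.02, from -0.14 to 0.10) were measured at 40.8 CPM or more in every sample and were not called. Cbr1, a carbonyl reductase that converts PGE2 to PGF2α, was 1.31-fold lower with no overlap (log2 fold change -0.39, adjusted p = 0.000179 from edgeR), under the fold threshold.

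Transport genes gave opposite signs. Abcc4 (MRP4), which exports prostaglandins, fell from 39.1, 33.6 and 34.6 CPM to 22.0, 22.8 and 22.1 (log2 fold change -0.68, SE 0.07, edgeR adjusted p = 4.42e-05). Slco2a1, the prostaglandin transporter that takes them up, was at 12.4 ± 0.786 and 16.5 ± 1.77 CPM (SD, n = 3 each), with a log2 fold change of 0.41 under the fold threshold (adjusted p = 0.00604 from edgeR).

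Of the 4 PGE2 receptors, 2 were called, both higher, beside 18.9% of all genes called higher. Ptger1 (EP1), which raises calcium, and Ptger3 (EP3), which lowers cAMP, were called higher, whereas Ptger2 (EP2) and Ptger4 (EP4), which raise cAMP, were not called. Ptger3 (ENSMUSG00000040016; chromosome 3, 157566892 to 157645888, plus strand) was at 2.23, 3.23 and 3.49 CPM in normoxia and at 5.03, 6.92 and 6.54 in hypoxia, from 58, 85 and 86 against 128, 217 and 208 counts. No samples overlapped, and the mean went from 2.98 ± 0.663 to 6.16 ± 1.00 CPM (SD, n = 3 each), or 1.05 as log2 fold change (SE 0.20, edgeR adjusted p = 0.00149).

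Ptger1 (ENSMUSG00000019464; chromosome 8, 83666678 to 83672753, plus strand) was at 2.50, 5.01 and 2.96 CPM in normoxia and at 6.05, 6.16 and 8.33 in hypoxia. Normoxic replicate 2 came close to the hypoxic samples without reaching them. The log2 fold change was 0.97 (SE 0.25, edgeR adjusted p = 0.00809), and it ran from 0.77 to 1.32 when each sample was left out in turn, with the call kept.

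Ptger4 (ENSMUSG00000039942; chromosome 15, 5206661 to 5244187, minus strand) was the most abundant of the 4 receptors, at 17.2, 16.4 and 16.9 CPM in normoxia and 16.7, 14.4 and 16.3 in hypoxia. Its log2 fold change was -0.09, with a 95% confidence interval from -0.28 to 0.09 (adjusted p = 0.342 from edgeR), which leaves out a change of 1.5-fold either way. Its exons overlap those of Ttc33 on the other strand, whose log2 fold change was 0.15 (adjusted p = 0.106 from edgeR). Ptger2 (ENSMUSG00000037759; chromosome 14, 44988195 to 45003820, plus strand) had 32, 20 and 25 counts in normoxia and 26, 30 and 47 in hypoxia, or 1.00 ± 0.237 and 1.15 ± 0.283 CPM (SD, n = 3 each). The interval of its log2 fold change, from -0.44 to 0.86, was too wide at this depth to leave out a change past the threshold (adjusted p = 0.551 from edgeR), and it was -0.02 without hypoxic replicate 3.

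Per kb, Ptger4 made up 70.4%, 60.2% and 65.3% of the summed level of the 4 receptors in normoxia and 53.4%, 46.1% and 45.4% in hypoxia. Ptger3 went from 10.7%, 13.8% and 15.8% to 18.8%, 26.0% and 21.2%, and Ptger1 from 12.5%, 22.4% and 13.9% to 23.6%, 24.1% and 28.2%. The ratio of Ptger1 and Ptger3 together to Ptger2 and Ptger4 together was 0.301, 0.567 and 0.423 in normoxia and 0.737, 1.00 and 0.975 in hypoxia. It differed by 1.11 on the log2 scale (standard error 0.30, exact permutation p = 0.1, two-sided, the smallest possible here). Ptger4 remained the most abundant receptor in all 6 samples. These shares and ratios depend on the length used. With the longest transcript the mean of Ptger4 was 4.47 CPM per kb at 21% O2 and 4.19 at 1% O2. On that scale Ptger1 was at 0.744 and 1.46 and Ptger3 at 0.834 and 1.72, together below Ptger4 at both oxygen levels.

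Among the receptors for other prostanoids, 3 of 5 could be tested and 1 was called, or 33.3%, beside 34.2% of all genes. Ptgfr (FP), the receptor for PGF2α, rose from 8.05, 7.59 and 7.06 CPM to 15.5, 14.1 and 15.3 (log2 fold change 0.98, SE 0.09, edgeR adjusted p = 2.27e-05). Ptgir (IP), the prostacyclin receptor and the most abundant of these, went from 72.5, 72.5 and 75.4 CPM to 50, 55 and 50.2, with no overlap. Its log2 fold change of -0.51 (SE 0.06, edgeR adjusted p = 6.35e-05) was under the fold threshold, with the same sign as that of prostacyclin synthase. Tbxa2r (TP), the thromboxane receptor, was at 8.86 ± 1.46 and 6.11 ± 1.31 CPM (SD, n = 3 each), overlapping between conditions, and its log2 fold change of -0.54 passed the threshold, among the alternatives run, only without normoxic replicate 2 (-0.68) or hypoxic replicate 1 (-0.72). The PGD2 receptors were at the limit of detection: Ptgdr had 0 counts in every sample, and Ptgdr2 had 3 to 6 counts in normoxia and 1 or 2 in hypoxia.

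The supply of arachidonic acid is set upstream of the cyclooxygenases. Pla2g4a, cytosolic phospholipase A2α, the main enzyme for prostanoid synthesis, rose from 74.1, 63.2 and 60.2 CPM to 107, 105 and 102 (log2 fold change 0.67, SE 0.08, edgeR adjusted p = 7.22e-05). Its relative Pla2g4b rose as well at a low level, from 1.49 ± 0.164 to 3.39 ± 0.586 CPM (SD, n = 3 each; log2 fold change 1.18, adjusted p = 0.000834 from edgeR), although its exons overlap those of Gm28042 on the same strand. Mgll, monoacylglycerol lipase, which frees arachidonic acid from 2-arachidonoylglycerol, fell from 14.6, 36.6 and 11.8 CPM to 2.32, 4.69 and 4.21 (log2 fold change -2.47, SE 0.43, edgeR adjusted p = 0.000939). Normoxic replicate 2 stood far above the others for Mgll, and without it the log2 fold change was -1.81 with the call kept. The other 4 tested genes of release, Pla2g4c, Pla2g2d, Pla2g2e and Pla2g6, were not called, with log2 fold changes from -0.12 to 0.32, and 4 further phospholipases had too few counts to be tested.

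Of 4 genes that return arachidonic acid to membranes, 1 rose and 1 fell, beside 34.2% of all genes called. Acsl4, the acyl-CoA synthetase with a preference for arachidonic acid, rose from 89.1 ± 7.49 to 137 ± 0.443 CPM (SD, n = 3 each; log2 fold change 0.62, adjusted p = 3.99e-05 from edgeR), and was 0.57 and under the fold threshold without normoxic replicate 2. Lpcat3, which attaches it to phosphatidylcholine, fell from 51.7, 69.2 and 59.0 CPM to 29.3, 29.6 and 30.3 (log2 fold change -1.01, SE 0.10, edgeR adjusted p = 2.37e-05). Mboat7, which attaches it to phosphatidylinositol, had a log2 fold change of 0.25 (adjusted p = 0.00475 from edgeR) and Lpcat2 of 0.05 (adjusted p = 0.748 from edgeR), neither past the fold threshold.

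**Figure D4:**
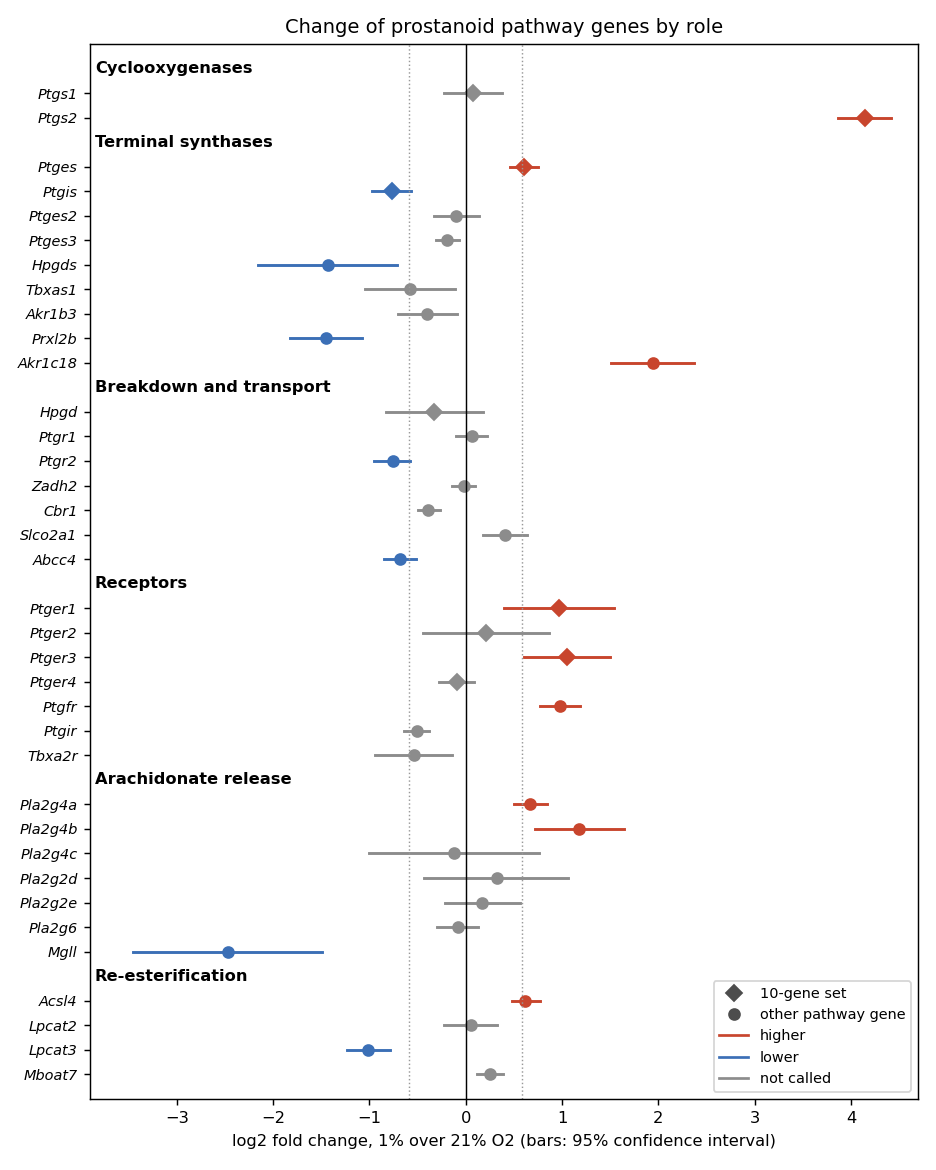
Log2 fold change of 1% over 21% O2 from edgeR with 95% confidence intervals, for the 9 tested genes of the set (diamonds) and 27 other tested genes of the pathway (circles), grouped by role. Red and blue mark genes called higher and lower, grey those not called, and dotted lines the 1.5-fold threshold; Ptgs2 at 4.14 lies furthest to the right and Mgll at -2.47 furthest to the left.

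Over the 33 further genes of arachidonate supply, synthesis, breakdown and reception, 27 could be tested, and 5 were called higher and 6 lower. That is 40.7% of those tested, against 34.2% of all genes, with a median log2 fold change of -0.10. Calls fell on both sides. The genes called higher were Pla2g4a, Pla2g4b, Acsl4, Akr1c18 and Ptgfr, and those called lower Mgll, Lpcat3, Hpgds, Prxl2b, Ptgr2 and Abcc4.

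Per kb, the levels of the 10 genes formed tiers in both conditions. At 21% O2, Ptgs1 (40.0 ± 4.28 CPM per kb) and Ptgis (39.6 ± 2.21) led and did not differ beyond their spread, followed by Ptges (25.7 ± 1.69; SD, n = 3 each). Ptgs2 (2.71 ± 0.409) and Ptger4 (2.53 ± 0.0585) came next and were likewise not separated, ahead of Hpgd (1.68 ± 0.308), Ptger1 (0.640 ± 0.245), Ptger3 (0.524 ± 0.116) and Ptger2 (0.193 ± 0.0456). At 1% O2, Ptgs2 (47.7 ± 5.21), Ptgs1 (42.1 ± 8.16) and Ptges (39.1 ± 2.01) were at the top. The range of Ptgs1 overlapped those of Ptgs2 and Ptges, whereas every sample of Ptgs2 was above every sample of Ptges on this scale. Ptgis was below them at 23.2 ± 2.90 CPM per kb (SD, n = 3 each). Ptger4 (2.37 ± 0.187) followed, then Hpgd (1.33 ± 0.284), Ptger1 (1.25 ± 0.236) and Ptger3 (1.08 ± 0.176), whose ranges overlapped, and Ptger2 (0.222 ± 0.0546). Only Ptgs2 moved from the tier of the receptors to that of the abundant enzymes. The length of the longest transcript put Ptger4 (4.47 CPM per kb) above Ptgs2 (2.78) at 21% O2, and Ptgs1 (57.1) above Ptgs2 (49.1) at 1% O2. It also put Ptger3 above Ptger1 in both conditions (0.834 against 0.744 at 21% O2 and 1.72 against 1.46 at 1% O2), and both above Hpgd (1.33) at 1% O2.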

How the data were processed

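RNA-seq of 6 samples was analysed, 3 at 21% O2 and 3 at 1% O2, grouped by the sample labels; all table columns were matched to samples by name. The authors trimmed adapters, mapped reads to GRCm38 with STAR (2.6.1b) and deposited RSEM (1.3.1) expected counts per gene, not normalized between samples. All values were whole, so rounding changed nothing. The annotation release and strand setting are not given in the sources used here. Names, exons and coordinates came from GENCODE M21 (GRCm38), which held 55240 of the 55426 features.

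Counts were filtered with filterByExpr, scaled by TMM and fitted with edgeR 4.0.16 (R 4.3.3) across 16207 genes without a replicate block, with Benjamini-Hochberg adjustment; standard errors are the log2 fold change divided by the square root of F. DESeq2 1.42.0, the tool of the study's methods, and limma-voom (limma 3.58.1) were alternatives, as were other scalings, filters and fold thresholds, the block, and each sample left out. On simulated data with 200 changed genes among 16207 for the same comparison, edgeR recovered 168 with 7 false calls. Replicates differed by more than sampling noise (chi-square per degree of freedom 6.15 to 24.6). The 10 genes and all lists were chosen with earlier results of these data known. Pathway genes were named if called, or if another synthase or receptor. The other uncalled genes named (of release, re-esterification, breakdown, transport and leukotrienes), single markers and genes with overlapping exons were chosen after their values were seen. Intervals cover counting error or the spread between samples only. Protein sequences were not used here. Some items are not reported here.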

Additional observations from a re-analysis of the deposited data

How the results depend on the processing

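Of the 135 values of the 9 tested genes under the alternatives, 127 kept their direction and their side of the threshold. Ptgs2, Ptgis, Ptger1, Ptger3, Hpgd and Ptger4 did so in every alternative fit at the 1.5-fold threshold. Ptges fell under the fold threshold 5 times, at 0.56 to 0.58 on the log2 scale. Directions turned for genes near no change when 1 sample was left out, with ranges over the 6 such fits of -0.03 to 0.22 for Ptgs1, -0.02 to 0.38 for Ptger2, -0.36 to 0.22 for Pla2g4c, -0.16 to 0.01 for Pla2g6, -0.06 to 0.11 for Lpcat2, -0.18 to 0.03 for Ptges2, -0.04 to 0.01 for Zadh2 and -0.01 to 0.65 for Cysltr1. The mean log2 ratio of Ptgs2 to Ptgs1 at 1% O2 turned to -0.20 with the length of the longest transcript. With a fold change of 2 as the threshold, 2 genes of the set, Ptgs2 and Ptger3, 11 of the pathway lists and 3156 of all genes were called, against 5, 19 and 5547; without a fold threshold 10168 of all genes were called. Leaving out each sample in turn gave 4 or 5 genes of the set, 18 to 21 of the pathway lists and 5226 to 5662 of all genes. With the replicate block edgeR called 5 genes of the set, 19 of the pathway lists and 5572 of all genes; it changed no call in the set. Correlations of the deviations of same-numbered samples were 0.14, 0.14 and 0.04, so the numbers were not taken to pair samples; each sample correlated best with its own number, a hint from the data and not from the design. DESeq2 called 5305 genes without and 5083 with the block. Low counts limit Ptger2, Hpgd, Ptger1 and Ptger3 in the set. Ptgds in the set and 9 of the 52 genes of the pathway lists, such as Ptgdr and Ptgdr2, could not be tested. Merged exon lengths differ from the effective lengths RSEM uses, so levels between genes are approximate.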

Other observations

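The lipoxygenase branch, which turns arachidonic acid into leukotrienes instead of prostanoids, was measured through 10 genes, of which 7 could be tested, and 1 was called higher and 2 lower, or 42.9%, beside 34.2% of all genes. Ltc4s, leukotriene C4 synthase, fell from 3.5, 5.77 and 3.21 CPM to 0.393, 0.734 and 0.314, or -3.09 as log2 fold change (SE 0.36, edgeR adjusted p = 7.5e-05). Alox5ap, the partner protein of 5-lipoxygenase, was at 12.1, 18.6 and 16.4 CPM in normoxia and 6.99, 13.3 and 7.2 in hypoxia, with overlap. Its log2 fold change of -0.77 (adjusted p = 0.0233 from edgeR) lost its call without normoxic replicate 2 or 3 or hypoxic replicate 1 or 3, with adjusted p of 0.0623 to 0.0964 and log2 fold changes of -0.74 to -0.61, still past the fold threshold, in those fits. Alox5 itself was at 4.7 ± 0.811 and 3.66 ± 1.27 CPM (SD, n = 3 each) and was called lower only without hypoxic replicate 2 (log2 fold change -0.67). Lta4h, leukotriene A4 hydrolase, was at 59.3 ± 2.66 and 58.0 ± 0.857 CPM, with a 95% confidence interval of its log2 fold change from -0.15 to 0.09. Ltb4r2, a leukotriene B4 receptor, was called higher on 4, 6 and 9 counts against 18, 17 and 19, and this call was lost with DESeq2 (adjusted p = 0.0579), with DESeq2 and the replicate block (0.124) and without normoxic replicate 1 (0.0542 from edgeR). Ltc4s, Alox5ap and Alox5 are known from macrophages and their kin. For each of them replicate 2 was the highest sample of its condition, as it was for the macrophage marker sum. That sum was 900 to 1570 CPM in normoxia and 473 to 844 in hypoxia. Replicate 2 was also the highest for Ptges and Dcn. Ltc4s was lowest in replicate 3 of each condition, and the marker sum in replicate 1. Ltc4s fell 8.51-fold, whereas Tyrobp, the tested macrophage marker that fell most, fell 2.55-fold. The part of those cells was not tested.

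Among 9 genes known to respond to cAMP, the second messenger of EP2, EP4 and the prostacyclin receptor, 3 rose and 2 fell. Sik1, a salt-inducible kinase, rose from 30.8, 33.9 and 33.7 CPM to 128, 146 and 125 (log2 fold change 2.02, SE 0.08, edgeR adjusted p = 9.52e-08). Per1, a clock gene, rose from 27.7 ± 1.62 to 56.8 ± 0.543 CPM, and Areg, the growth factor amphiregulin, from 0.587 ± 0.0985 to 2.07 ± 0.612 CPM (SD, n = 3 each). Nr4a1, an early-response nuclear receptor, fell from 71.6, 67.6 and 81.8 CPM to 36.2, 34.2 and 44.3 (log2 fold change -0.94, adjusted p = 6.06e-05 from edgeR), and Pde4d, a cAMP phosphodiesterase, from 15.3 ± 1.5 to 9.14 ± 0.673 CPM (SD, n = 3 each). The share called, 55.6%, stands beside 34.2% of all genes, and many other signals are known to act on these genes.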
